A study of Homo sapiens with 6 samples.

Results

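LINC genes are long intergenic non-protein-coding RNA genes, whose symbol is LINC followed by digits. The 139 LINC genes described here were chosen by their read number, a mean of at least 20 adjusted reads over the 6 samples. That mean takes in treated and control samples, and the choice was made with earlier results of these data known. The members come from 2157 LINC genes in a table of 38637 genes. The adjusted read is the deposited value of a gene in a sample, scaled to a common library size. A total of 874 LINC genes had a read in any sample, so the 139 are the upper end of the class by read number. The members closest to the limit were LINC00638 with a mean of 20.07 and LINC01094 with 20.12. Just below it were LINC02065 with 19.52 and LINC02783 with 19.75. All 139 passed the filter on low values and were tested.

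Cells of OVCAR8, an ovarian cancer line of human origin with wild type as its labelled genotype, were treated for 72 h with DMSO, the solvent, or with 2 nM pladienolide B. Pladienolide B binds SF3B1, the largest subunit of the SF3b complex, which recognises the branch point of introns. PolyA RNA was sequenced from 3 samples in each group, and nothing in the labels says whether these were separate cultures, so p-values measure the spread between these samples, which may be technical. The samples held 22621338 to 26130882 reads on genes, and LINC genes took 0.0953% to 0.104% of them. DMSO replicate 2 stood apart, with a chi-square per degree of freedom of 7.64 and 7.58 against the other DMSO samples, where that pair gave 1.94 and the pladienolide B pairs 3.33 to 4.95. The epithelial and Mullerian markers KRT8, KRT18, KRT7, PAX8 and EPCAM were present in every sample, while CDH1, WT1 and MUC16 lay between 10.2 and 41.6 adjusted reads, and of the leukocyte markers PTPRC and CD3E had at most 2.00. COL1A1, a fibroblast marker, was lower after treatment (5602 to 6902 adjusted reads over the samples) and CD68, a leukocyte marker, higher (1091 to 1590), DCN, LYZ and CDH5 had at most 4.24, and the part of these markers in the results was not tested.

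Many long noncoding RNAs are transcribed by RNA polymerase II, capped, spliced and polyadenylated like mRNAs, but are spliced less efficiently and are often kept in the nucleus. Some act on the gene beside them, others bind proteins or microRNAs, and for most LINC symbols no function is known. Because they often start or end near another gene, the position of each member relative to its neighbours is part of its description.

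The 5 promoter windows below show where members that moved begin, and how close another gene can start. RefSeq windows (GRCh38.p14) from 250 bases before to 50 bases after the start were found for 99 of the 139 members, and for 87 of these the start was within 10 bases of the start in the deposited table. The lines give, 5′ to 3′ on the strand of the gene, the 2 largest rises and 2 largest falls with a window at the deposited start, and then LINC01836. In the first 4 the capitals mark matches on either strand to TGANTCA (the AP-1 motif), ACGTG (the core of the hypoxia response element), TGACGTCA (the cAMP response element) or TATAAA (the TATA box). In LINC01836 they mark the bases from its own start back to the start of LOC101928450, which is transcribed away from it 92 bases upstream.
LINC01833, chr2:44939150-44939449, - strand: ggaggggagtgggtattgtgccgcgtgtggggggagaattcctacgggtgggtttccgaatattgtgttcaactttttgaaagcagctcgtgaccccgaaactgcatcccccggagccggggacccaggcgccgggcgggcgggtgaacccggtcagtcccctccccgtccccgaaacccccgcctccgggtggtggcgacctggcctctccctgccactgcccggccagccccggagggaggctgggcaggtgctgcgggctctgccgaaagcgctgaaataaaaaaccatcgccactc
LINC02009, chr3:46423618-46423917, - strand: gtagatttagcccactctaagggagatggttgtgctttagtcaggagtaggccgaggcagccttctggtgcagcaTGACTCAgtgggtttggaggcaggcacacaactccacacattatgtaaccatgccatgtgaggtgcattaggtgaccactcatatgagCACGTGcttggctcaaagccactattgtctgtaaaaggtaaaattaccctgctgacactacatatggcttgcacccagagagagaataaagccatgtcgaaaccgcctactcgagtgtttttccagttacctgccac
LINC02861, chr16:3950395-3950694, - strand: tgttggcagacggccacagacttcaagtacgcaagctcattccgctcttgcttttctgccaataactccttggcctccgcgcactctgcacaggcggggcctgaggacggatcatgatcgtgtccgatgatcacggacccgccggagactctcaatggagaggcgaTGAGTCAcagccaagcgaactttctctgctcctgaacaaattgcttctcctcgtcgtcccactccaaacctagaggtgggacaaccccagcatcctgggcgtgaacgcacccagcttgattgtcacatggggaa
LINC01806, chr2:161244489-161244788, + strand: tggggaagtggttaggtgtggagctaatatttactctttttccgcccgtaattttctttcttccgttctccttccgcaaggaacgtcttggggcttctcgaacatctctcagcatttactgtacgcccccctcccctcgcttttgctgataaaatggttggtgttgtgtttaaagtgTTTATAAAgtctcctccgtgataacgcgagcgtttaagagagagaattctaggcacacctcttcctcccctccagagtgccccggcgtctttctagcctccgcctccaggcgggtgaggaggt
LINC01836, chr19:782546-782845, + strand: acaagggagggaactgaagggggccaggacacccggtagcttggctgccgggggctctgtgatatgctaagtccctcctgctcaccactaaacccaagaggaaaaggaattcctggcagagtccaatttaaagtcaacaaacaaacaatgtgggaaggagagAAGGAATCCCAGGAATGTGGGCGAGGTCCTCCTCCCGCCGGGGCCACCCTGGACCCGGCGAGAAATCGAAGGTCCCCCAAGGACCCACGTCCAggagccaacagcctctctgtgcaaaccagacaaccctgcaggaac
LINC01833 held no match to these letters. In LINC02009 the letters CACGTG match ACGTG on both strands and so count as 2 overlapping matches, as do the 2 matches to TATAAA in LINC01806. Over the 99 members, 13.1% held the AP-1 motif, against 7.76% of all 27305 windows of this length. The hypoxia core was in 29.3% of the members and 21.6% of all windows, the cAMP response element in 2.02% and 1.98%, and the TATA box in 11.1% and 12.0%. Among the 12 members called higher that had a window, 1 held the AP-1 motif and 4 the hypoxia core. Among the 21 called lower, 2 held the AP-1 motif and 7 the hypoxia core. These are matches of letters and not sites of binding.

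After pladienolide B, 44 of the 139 LINC genes changed, 17 of them higher and 27 lower, and 95 did not pass the test. A change was called at an adjusted p below 0.05 by limma on log2(value + 1), with Benjamini-Hochberg adjustment over all 16178 genes tested. The share called was 31.7% of the LINC genes, against 47.6% of all genes tested. Called higher were 12.2% of the LINC genes against 22.4% of all genes, and called lower were 19.4% against 25.2%. The values of the groups did not overlap for 57 members (41.0%), against 55.3% of all genes. In 11 members, 7.91% of the 139, the called change was at least 2-fold, 6 of them higher and 5 lower, against 3.93% of all genes. By level, at means of 20 to 50 the shares were 9.52% of LINC genes and 9.76% of all genes, at 50 to 200 they were 4.55% and 4.74%, and above 200 they were 9.38% (3 of 32) and 1.63%. The limit of 20 and these ranges use the mean over both groups. LINC00520, LINC02777 and LINC00672 had DMSO means of 12.9, 12.9 and 13.2. LINC02086 and LINC00911 had pladienolide B means of 17.7 and 14.9. These members passed the limit through the group where they were higher, and the 3.93% of all genes includes genes below it. The median log2 fold change of the members was -0.09, and that of all genes tested was -0.004, with 62 members above 0 and 77 below. Without DMSO replicate 2, 14 members were called higher and 22 lower.

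The share of members called rose with the number of reads behind the gene. Of the 63 members with a mean of 20 to 50 adjusted reads, 22.2% were called, against 22.5% of the 1568 tested genes of any kind in that range. Of the 44 members from 50 to 200, 34.1% were called, against 37.9% of 2533 genes. Of the 32 members above 200, 46.9% were called, against 55.1% of the 7674 genes from 200 to 2000. Within each range the shares lay closer than over the whole table, though only the limits of the ranges were matched: above 200 the median mean was 373 for LINC genes and 722 for all genes. In the highest range only 3 of the 32 members were higher (9.38%) and 12 were lower (37.5%), where all genes of that range had 25.3% higher and 29.8% lower. These shares are descriptions, and no test of their difference was run.

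**Figure D1:**
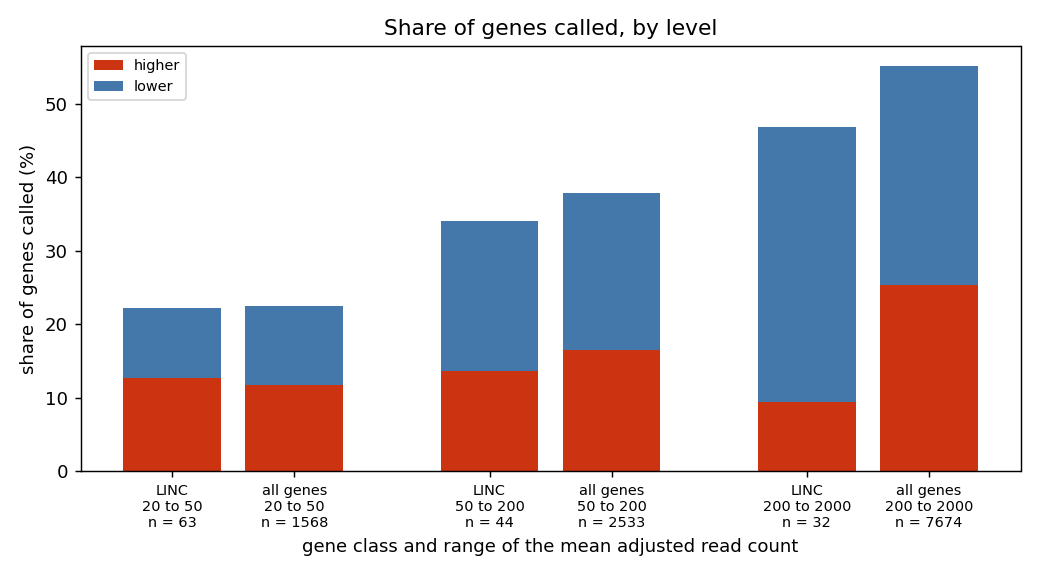
Share of genes called at an adjusted p below 0.05 (y axis, %), for LINC genes and for all genes tested, in 3 ranges of the mean adjusted read count (x axis). Red is the share called higher and blue the share called lower after pladienolide B; LINC genes above 200 reads had 9.38% higher and 37.5% lower.

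Summed over the 139 members, the samples held 23560, 22960 and 23350 adjusted reads in DMSO replicates 1 to 3 and 21130, 21610 and 21440 in pladienolide B, so that the groups did not overlap. Members with many reads weigh most in this sum. Among them, LINC00707 (means of 1309 in DMSO and 653 in pladienolide B) and LINC00942 (1235 and 838) fell, while LINC02246 (141 and 660) rose. The sums of the 27 members called lower lay between 9178 and 9634 adjusted reads under DMSO and between 6135 and 6366 under treatment. Those of the 17 called higher lay between 2834 and 2870 under DMSO and between 3949 and 4365 under treatment. In DMSO these 17 carried fewer reads than the 27 called lower, a comparison of unequal numbers of genes picked by their direction of change. Members of each set were chosen by their own calls. The separation of DMSO from treatment in the sums of called members was therefore built in and is no further evidence of a change. Among themselves, replicates of a member varied with a median coefficient of variation of 12.2% in DMSO and 14.2% in pladienolide B.

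**Figure D2:**
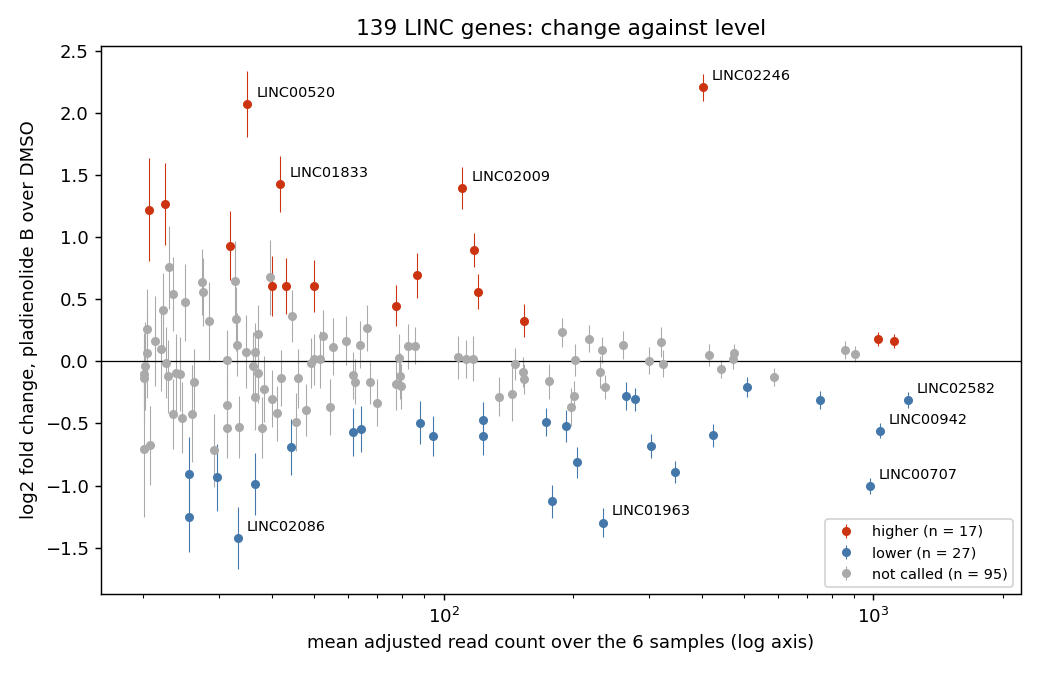
Log2 fold change after pladienolide B relative to DMSO (y axis, bars are 1 standard error) against the mean adjusted read count over the 6 samples (x axis, log scale) for the 139 LINC genes. The 17 members called higher are red, the 27 called lower blue and the 95 not called grey; the largest rises are LINC02246 (2.21) and LINC00520 (2.07), and the largest fall is LINC02086 (-1.43).

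The largest rise was that of LINC02246, on chromosome 21 of GRCh38 from 14816838 to 14918668 on the - strand. It had 142, 149 and 132 adjusted reads in DMSO and 577, 796 and 608 in pladienolide B. Every treated sample was above every control, with means of 141 ± 8.55 and 660 ± 118 (SD, n = 3), for a log2 fold change (FC, pladienolide B relative to DMSO) of 2.21 ± 0.11 (SE, adjusted p = 1.7e-10). No gene overlaps it. The nearest gene with a mean of at least 20, NRIP1, a nuclear receptor corepressor 42567 bases away, had a log2 FC of -0.05 (adjusted p = 0.38).

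LINC00520, on chromosome 14 from 55781135 to 55796674 on the - strand, has been described in several carcinomas. It had 10.3, 15.1 and 13.2 adjusted reads in DMSO and 51.2, 63.9 and 56.1 in pladienolide B, with no overlap of the groups. Its log2 FC was 2.07 ± 0.27 (SE, adjusted p = 6.6e-06). The nearest gene, KTN1, which encodes the kinesin receptor kinectin, lies 96551 bases away on the opposite strand and moved the other way, with a log2 FC of -0.45 (adjusted p = 2.3e-07).

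LINC02009 and its nearest gene rose together. LINC02009, on chromosome 3 from 46416516 to 46423667 on the - strand, had 50.6, 70.5 and 60.5 adjusted reads in DMSO and 153, 187 and 141 in pladienolide B, for a log2 FC of 1.40 ± 0.17 (SE, adjusted p = 3e-06). CCRL2, an atypical chemokine receptor gene that lies 6993 bases away on the other strand, had 11.6 ± 2.17 adjusted reads in DMSO and 51.6 ± 8.73 in pladienolide B (SD, n = 3), a log2 FC of 2.06 (adjusted p = 1.2e-05). Both genes thus had higher means after treatment, with rises above 2-fold. The limit of 20 for a nearest gene uses the mean over both groups, and CCRL2 passed it only through its treated samples. LINC01833 begins 2503 bases from SIX3, a homeobox gene transcribed in the opposite direction. It had 21.6, 25.2 and 19.8 adjusted reads in DMSO and 64.6, 58.8 and 60.1 in pladienolide B, with no overlap (log2 FC 1.43, adjusted p = 5.9e-05). SIX3 had means of 34.6 adjusted reads in DMSO and 45.0 after treatment and did not pass the test (log2 FC 0.46, adjusted p = 0.19).

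LINC00999 on chromosome 10 had 81.9, 88.7 and 75.5 adjusted reads in DMSO and 154, 151 and 155 in pladienolide B (log2 FC 0.90, adjusted p = 4.2e-05). LOC101929540, which overlaps 7193 bases of it on the same strand, had a log2 FC of -0.30 and did not pass the test (adjusted p = 0.44). The rises of LINC02777, LINC00672, LINC00923 and LINC01106 rested on few reads, with means of 20.6 to 43.0 adjusted reads over the 6 samples. LINC00672, which lies 3398 bases from LASP1 on the same strand, had 18.0, 17.1 and 4.53 adjusted reads in DMSO and 25.1, 30.9 and 28.1 in pladienolide B. Its log2 fold change of 1.22 (adjusted p = 0.023) fell to 0.64 (adjusted p = 0.12) without DMSO replicate 3, the sample at 4.53, and it missed the threshold without pladienolide B replicate 2 (1.15, adjusted p = 0.084) or 3 (1.22, adjusted p = 0.066). LINC00923 lost its call without pladienolide B replicate 3 (0.74, adjusted p = 0.072), and LINC01106 without DMSO replicate 1 or 2 or pladienolide B replicate 1 or 2 (0.47 to 0.62, adjusted p from 0.058 to 0.15). Beside LINC00672, the actin-binding protein gene LASP1 was higher by a log2 FC of 0.18 (adjusted p = 0.00089).

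**Figure D3:**
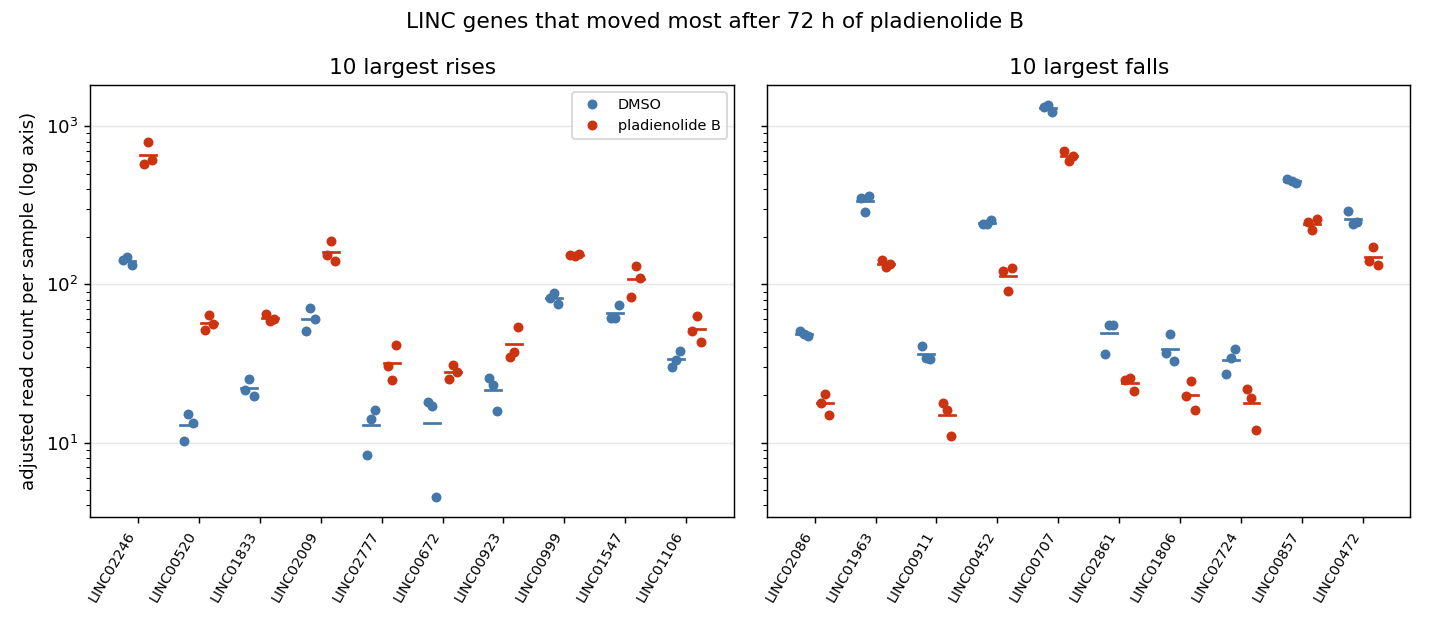
Adjusted read count (y axis, log scale) in each of the 3 DMSO samples (blue points) and 3 pladienolide B samples (red points), with the group mean as a line, for the 10 largest rises and the 10 largest falls among members called at 0.05 whose groups were fully separate. LINC02246 lies between 132 and 149 in DMSO and between 577 and 796 after treatment, LINC00707 lies between 1228 and 1371 and then between 606 and 701, and the DMSO point of LINC00672 at 4.53 lies apart.

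Among the 10 largest falls, LINC00707 was the member with most reads. It lies on chromosome 10 from 6779598 to 6842906 on the + strand and had 1328, 1371 and 1228 adjusted reads in DMSO and 701, 606 and 651 in pladienolide B. After treatment 49.9% of the DMSO mean remained (adjusted p = 3.5e-09), and when any 1 sample was left out the log2 FC lay between -1.06 and -0.95. LOC105376387, a long noncoding RNA gene on the opposite strand that overlaps it over 5133 bases, fell by nearly as much, from 405 ± 30.2 to 204 ± 11.3 adjusted reads (SD, n = 3; log2 FC -0.98, adjusted p = 2.9e-07). Whether the authors counted reads by strand is not stated, so reads from the shared bases cannot be told apart.

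LINC01963, a gene of 1 exon in GENCODE on chromosome 2 from 216216889 to 216220192, had 352, 288 and 364 adjusted reads in DMSO and 142, 128 and 135 in pladienolide B. The groups were far apart, with a log2 FC of -1.30 (standard error 0.11, adjusted p = 9.6e-08). XRCC5, which encodes the Ku80 subunit for DNA end joining and lies 10596 bases away on the same strand, had a log2 FC of 0.06 (adjusted p = 0.31). LINC00452 on chromosome 13 had 240, 240 and 253 adjusted reads in DMSO and 121, 90.2 and 126 in pladienolide B (log2 FC -1.13, adjusted p = 2.9e-06). Its nearest gene, LOC105377806, lies 15271 bases away on the opposite strand and rose from 14.8 ± 6.29 to 73.5 ± 11.8 adjusted reads (SD, n = 3; log2 FC 2.30, adjusted p = 4.7e-06). These neighbours moved in opposite directions.

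LINC02086 on chromosome 17 had the largest fall, with 50.9, 48.4 and 47.2 adjusted reads in DMSO and 17.7, 20.2 and 15.0 in pladienolide B (log2 FC -1.43 ± 0.25, SE, adjusted p = 0.00016). LOC101060400, 8149 bases away on the opposite strand, fell as well, from 930 ± 96.0 to 616 ± 26.4 adjusted reads (SD, n = 3; adjusted p = 5.5e-06). LINC00857 on chromosome 10 had 463, 449 and 437 adjusted reads in DMSO and 247, 221 and 259 in pladienolide B, with no overlap (log2 FC -0.89, adjusted p = 4.1e-07). ANXA11, an annexin gene 1902 bases away, was lower by much less (log2 FC -0.14, adjusted p = 0.0086). LINC00472 on chromosome 6 had 290, 242 and 249 adjusted reads in DMSO and 141, 172 and 132 in pladienolide B (log2 FC -0.81, adjusted p = 4.3e-05). The falls of LINC00911, LINC02861, LINC01806 and LINC02724 rested on means of 25.5 to 36.4 adjusted reads over the 6 samples, with log2 fold changes from -1.25 to -0.91. LINC01806 lost its call without DMSO replicate 2 (-0.78, adjusted p = 0.052), and LINC02724 without DMSO replicate 3 (-0.79, adjusted p = 0.084) or pladienolide B replicate 3 (-0.67, adjusted p = 0.087). Beside them, ADCY9, an adenylate cyclase gene 2943 bases from LINC02861, was lower (-0.31, adjusted p = 0.0011) and TANK, a TRAF-binding protein gene 8509 bases from LINC01806, was higher (0.17, adjusted p = 0.021).

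Of the 5 members with the highest means, 3 fell and 2 rose. LINC02582 on chromosome 18, the highest, had 1395, 1257 and 1344 adjusted reads in DMSO and 1172, 999 and 1053 in pladienolide B (log2 FC -0.31, adjusted p = 0.00071). LINC00942 on chromosome 12 had 1192, 1233 and 1281 in DMSO and 818, 807 and 889 in pladienolide B (log2 FC -0.56, adjusted p = 7.7e-07), and LINC00707 is given above. LINC00839 and LINC02693 rose by log2 fold changes of 0.17 and 0.18 (adjusted p = 0.028 and 0.016). The treated samples of both lay above their controls, by less than 1.5-fold in the means. LINC00839 missed the threshold without DMSO replicate 1 or 3 or pladienolide B replicate 2 (0.11 to 0.17, adjusted p from 0.057 to 0.16), and LINC02693 without pladienolide B replicate 1 (0.16, adjusted p = 0.075).

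A list of 26 LINC genes with a described role in cancer had 19 in the table, of which 13 are members. Of these 13, 4 were called (30.8%), near the 31.7% of all LINC members. Called higher were LINC00520 and LINC01139, a gene known as LINK-A that binds signalling kinases, and called lower were LINC00472 and LINC00665. LINC01139 had 68.8, 66.5 and 61.3 adjusted reads in DMSO and 81.4, 101 and 87.2 in pladienolide B (log2 FC 0.45, adjusted p = 0.034), and LINC00665 had 577, 569 and 490 and then 487, 435 and 494, with overlapping groups (log2 FC -0.21, adjusted p = 0.048). The call of LINC00665 was lost in 12 of the 15 alternative fits, among them every fit that leaves out a sample other than DMSO replicate 3, and that of LINC01139 in every such fit but the one without pladienolide B replicate 1 (0.36 to 0.48 where lost, adjusted p from 0.05 to 0.13). Not called were LINC01116 (-0.37), LINC00467 (-0.22), LINC00662 (-0.18), LINC00941 (-0.12), LINC00641 (-0.09), LINC00963 (0.00), LINC00339 (0.03), LINC00205 (0.05) and LINC00667 (0.06), all as log2 fold changes with adjusted p-values from 0.058 to 0.99. LINC00667 is among the more abundant, with 911, 914 and 839 adjusted reads in DMSO and 961, 871 and 944 in pladienolide B, which overlap.

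Genes once named LINC that now carry another symbol are not members and also moved in both directions. Of 9 listed, 8 were tested and 5 were called (62.5%), 2 higher and 3 lower, against 47.6% of all genes tested. CYTOR fell from 761, 801 and 842 adjusted reads in DMSO to 536, 537 and 500 in pladienolide B (log2 FC -0.61, adjusted p = 1.3e-06), and CHASERR, which lies beside CHD2 and restrains it, was lower by a log2 FC of -0.47 (adjusted p = 4e-05). SMIM30 was lower (-0.26), while NBDY and MTLN were higher (0.21 and 0.23). NORAD, which binds Pumilio proteins, had 10482 ± 486 and 10561 ± 405 adjusted reads (SD, n = 3; log2 FC 0.01, adjusted p = 0.86), and BRD3OS and SMIM26 did not pass the test either.

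The span of a LINC gene often touches another gene. By the deposited positions, 51 of the 139 members (36.7%) overlapped at least 1 other gene of the table and 88 overlapped none. The overlaps made 70 distinct pairs, 52 on opposite strands and 18 on the same strand, and 11 members lay wholly inside another gene. Of the members with an overlap, 12 of 51 were called (23.5%), 4 higher and 8 lower. Of those without, 32 of 88 were called (36.4%), 13 higher and 19 lower. Both shares lay below the 47.6% of all genes.

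In 27 pairs, with 26 members and with LINC01270 and LINC01271 counted from both sides, the overlapping gene had a mean of at least 20 adjusted reads. This limit also uses the mean over both groups. The LINC gene was called in 9 of the 27 pairs and the overlapping gene in 11, where 47.6% of all genes tested were called. Both genes of the pair were called in 5 of them, always in the same direction, and this count was not tested. LINC01547 and LOC112268278, on opposite strands of chromosome 21, were both higher, with 61.1, 61.5 and 73.9 adjusted reads of LINC01547 in DMSO and 82.7, 131 and 110 in pladienolide B. Its log2 fold change was 0.69 (adjusted p = 0.0049), and that of LOC112268278 was 1.22 (adjusted p = 0.0095). LOC112268278 had means of 15.0 in DMSO and 35.3 in pladienolide B, so it passed the limit only through its treated samples. The pairs LINC00707 and LOC105376387, LINC01145 and LOC100996740, LINC00842 and LOC107987152, and LINC00294 and TCP11L1 were lower. LINC00294 lies inside TCP11L1 on the same strand, and had 339, 265 and 273 adjusted reads in DMSO and 258, 232 and 229 in pladienolide B (log2 FC -0.28, adjusted p = 0.043), beside -0.29 for TCP11L1 (adjusted p = 0.00071). The call of LINC00294 was lost with no filter, with DESeq2, with limma without the trend, and without DMSO replicate 1 or pladienolide B replicate 2 or 3, with a log2 FC from -0.35 to -0.17 over the fits that leave out a sample. LINC01145 and LINC00842 had log2 fold changes of -0.60 and -0.54, beside -0.74 for LOC100996740 and -0.98 for LOC107987152. LOC107987152 had means of 33.1 in DMSO and 16.55 in pladienolide B, so it passed the limit only through DMSO. The call of LINC00842 was lost with no filter, with DESeq2, and without DMSO replicate 2 or pladienolide B replicate 1 or 3 (-0.63 to -0.42).

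**Figure D4:**
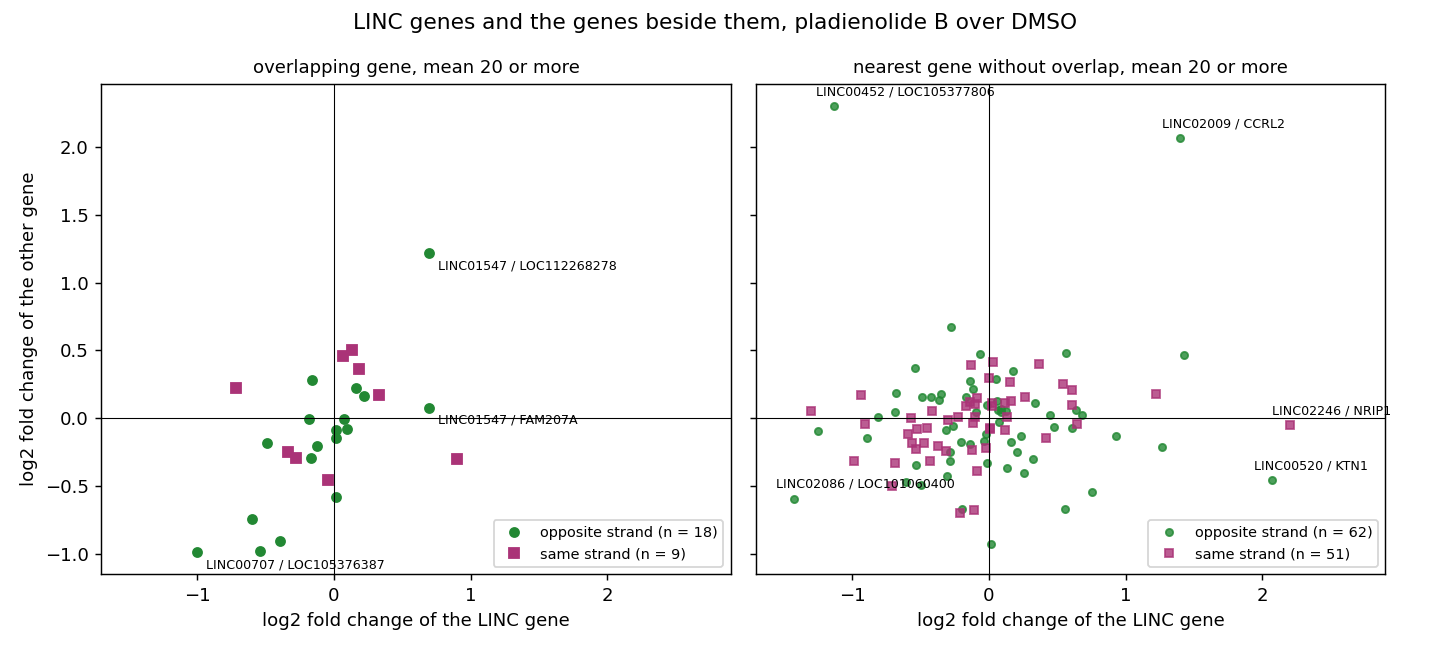
Log2 fold change of the other gene (y axis) against that of the LINC gene (x axis), pladienolide B over DMSO, for 27 overlapping pairs (left) and for 113 pairs of a LINC gene with its nearest gene that does not overlap it (right), with opposite strands as green circles and the same strand as purple squares. On the left the opposite-strand pairs run from LINC00707 and LOC105376387 at the lower left to LINC01547 and LOC112268278 at the upper right, and on the right LINC02009 and CCRL2 are both high while LINC00452 and LOC105377806 differ in sign.

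Over the 26 distinct overlapping pairs, counting the overlap of LINC01270 with LINC01271 once, the log2 fold changes had a Pearson r of 0.58 and a Spearman rho of 0.55. For the 17 pairs on opposite strands these were 0.79 and 0.74, and without LINC00707 they were 0.76 and 0.69. For the 9 pairs on the same strand they were -0.03 and 0.05. The points share the 6 libraries, and overlapping genes may share reads, so the correlations are given as descriptions. Reads of an opposite-strand pair cannot be separated where the counting did not use strand.

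Beyond the overlaps, 113 members had as their nearest gene with a mean of at least 20 over both groups one that did not overlap them, at a median distance of 21485 bases. LINC00115 and LINC01128, LINC00526 and LINC00667, LINC01116 and LINC01117, and LINC01291 and LINC01293 were nearest to each other and count from both sides. In 15 of the 113 pairs both genes were called, 4 both higher, 7 both lower and 4 in opposite directions. The opposite pairs were LINC00520 with KTN1, LINC00452 with LOC105377806, LINC01806 with TANK and LINC00839 with CCNYL2. Pearson r was 0.09 and Spearman rho 0.17 over the 113 pairs. These lay below the values of the 26 overlapping pairs (0.58 and 0.55) and of the 17 on opposite strands (0.79 and 0.74). They lay above those of the 9 on the same strand (-0.03 and 0.05), and the differences were not tested.

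Some members share a start region with another gene. Such pairs have starts on opposite strands within 1 kb of each other, and 25 members had one with a partner mean of at least 20, 11 of them with a protein-coding gene, with 3 pairs of LINC genes counted from both sides. Of the 25, LINC01547 and LINC01786 were higher and LINC00863, LINC01836 and LINC02482 lower, 5 of 25 where 47.6% of all genes tested were called, and 6 of the 25 partners were called. None of these pairs had both genes called, a count read against few calls on either side. The call of LINC01786 was lost without DMSO replicate 1 or 2 or pladienolide B replicate 2 or 3 (log2 FC from 0.47 to 0.81 over the fits that leave out a sample), and that of LINC02482 without DMSO replicate 2 or pladienolide B replicate 1 or 2 (from -0.82 to -0.52). LINC01836, whose window is printed above, had 103, 107 and 98.2 adjusted reads in DMSO and 56.6, 85.1 and 79.2 in pladienolide B (log2 FC -0.49, adjusted p = 0.027). That call was lost with DESeq2, with limma without the trend, and without DMSO replicate 1 or 2 or pladienolide B replicate 1, with a log2 FC from -0.61 to -0.32 over the fits that leave out a sample. LOC101928450, on the other side of the 92 bases, had a log2 fold change of the same size (-0.49) on fewer reads, 32.1 in DMSO and 22.4 in pladienolide B, and did not pass the test (adjusted p = 0.15). In 6 pairs the partner alone was called, among them SETD1B, a histone methyltransferase gene that was higher (0.37, adjusted p = 0.00028), while LINC01089 had a log2 FC of -0.54 (adjusted p = 0.081).

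By exon number, 3 of the 15 members with 1 exon in GENCODE were called, all of them lower: LINC01963, LINC00997 and LINC00294. LINC00294 lies inside TCP11L1 on the same strand, may share reads with it, and lost its call in 6 of the 15 alternative fits. Of the 110 with 2 or more exons, 15 were higher and 24 lower (35.5% called). The other 14 had no match there. Among all genes tested 47.6% were called, and among those with means of 20 to 50 it was 22.5%. The members of 1 exon had fewer reads, with a median mean of 45.9 against 61.6 for those with 2 or more exons. The shares by exon number are therefore not matched in level. The members of 1 exon need no splicing in that annotation, and their median log2 fold change was -0.13, beside -0.09 for those with 2 or more exons, a difference that was not tested.

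Other classes of noncoding RNA genes with a mean of at least 20 were called in shares from 27.3% to 55.0%. Of 322 antisense (-AS) genes, 29.5% were called, and of 77 divergent (-DT) genes, 27.3%. Of 665 other long noncoding RNA genes, 34.7% were called, 90 higher and 141 lower. Of 20 microRNA host genes (MIR..HG), 55.0% were called, 3 higher and 8 lower. In each of these classes, as among LINC genes and among all genes tested (22.4% higher, 25.2% lower), more genes were called lower than higher. LINC genes with means of 20 to 50 had the other order, with 8 higher and 6 lower. So did all genes tested in that range (184 higher, 169 lower) and the protein-coding genes among them (136 and 89). Of 13153 protein-coding genes, which have more reads per gene, 52.8% were called, 3276 higher and 3667 lower.

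Nuclear RNA decay removes many unstable noncoding RNAs, through the exosome and the adaptors that bring RNA to it. Of 28 genes of this pathway that were tested, 12 were higher, 7 lower and 9 did not pass the test, with a median log2 fold change of 0.07. The share called was 67.9%, against 47.6% of all genes tested and 55.1% of those with means from 200 to 2000. Some genes of the list, among them EXOSC10, MTREX and XRN2, had means above 2000, so that range does not match the list in level. Among the exosome subunits, EXOSC7 (0.47), EXOSC2 (0.40), EXOSC4 (0.37), EXOSC3 (0.34), DIS3 (0.22), EXOSC6 (0.19) and EXOSC10 (0.14) were higher. EXOSC9 (-0.23) and EXOSC5 (-0.27) were lower, and EXOSC1 and EXOSC8 did not pass the test. Of the cap-binding and adaptor proteins, NCBP1 (0.49), ZC3H18 (0.42) and NCBP2 (0.295) were higher and ZFC3H1 (-0.19) lower. SRRT, RBM7, ZCCHC7, ZCCHC8 and ZC3H3 did not pass the test. The helicase MTREX (-0.15), the polymerase TENT4A (-0.39) and the poly(A)-binding protein PABPN1 (-0.21) were lower. The list moved in both directions, and its part in the changes of LINC genes was not tested.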

How the data were processed

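PolyA RNA of 6 OVCAR8 samples was sequenced, 3 treated with DMSO and 3 with pladienolide B. The study's methods state trimming and alignment to hg38 with hisat2, and the submitters' processing notes list HISAT2, HTSeq 0.12.4, DESeq2 and hg19. The deposited positions were those of GRCh38, since 99.8% of 37067 matched genes overlapped their RefSeq position. Gene models and strand setting are not given in the sources used here. The deposited value per sample is a signal adjusted for library size. It was found to be edgeR's quantile-adjusted count (common dispersion 0.0027), and its inversion to whole reads, when adjusted again, returned the deposited values to within 4.9e-05. Of the recovered values of 10 or more, 99.99% were within 0.02 of a whole number. The deposited log2 fold changes, p-values and q-values are the authors' own comparison and were not used. Reads on genes per sample were 22621338 to 26130882.

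Values were tested as log2(value + 1) with limma 3.58.1, with a trend of variance on expression, two-sided, on 16178 genes kept by filterByExpr of edgeR 4.0.16 (minimum 10, total 15), with Benjamini-Hochberg adjustment over all of them at 0.05. With the pseudocount of 1, changes at low read numbers come out smaller than they are. Alternatives were other filters, pseudocount, scaling and variance settings, a replicate block, leaving out each sample, edgeR's quasi-likelihood test and DESeq2 1.42.0 on the recovered reads, and other limits on the mean. Same-numbered samples did not deviate together (correlations -0.02, -0.02 and 0).

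An overlap is any shared base of the deposited spans. Exon numbers came from GENCODE, matched for 125 members, and 137 members matched RefSeq. The genes named are the 10 largest rises and falls with groups that do not overlap, the 5 highest means, the genes at the limit, those with a described role, and genes that overlap these or lie nearest. Other genes were named after their values were seen. The members and lists were chosen with earlier results of these data known.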

Additional observations from a re-analysis of the deposited data

How the results depend on the processing

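The directions of the counts and of the median held under the alternatives run. Leaving out each sample gave 12 to 14 members higher, 22 to 28 lower and a median log2 fold change from -0.1 to -0.0507, nearest to 0 without pladienolide B replicate 3. No filter and DESeq2 each gave 12 higher and 22 lower, and edgeR's quasi-likelihood test 18 and 27. The median was -0.0537 with edgeR and RLE factors and -0.0536 with DESeq2. With a mean of 10 or more it was -0.0381, with 24 of 200 members called at least 2-fold, and with a mean of 50 or more, 9 of 76 were higher and 5 at least 2-fold. With the replicate number as a block, 17 members were higher and 27 lower (26 of them shared with the unblocked fit), and 7349 genes in all, against 7695. Of the 44 called members, 26 were called in every alternative fit to all members, 8 higher and 18 lower, and 14 others were called in at least 1. None of the 44 changed sign. Leaving out a sample lost the call of 18 members in at least 1 of the 6 fits, and of 6 in at least 4 (LINC01139, LINC00665, LINC01106, LINC01234, LINC01786 and LINC00630), and the cause was not tested. With 3 samples a group, members with few reads had a median standard error of 0.27 (mean of 20 to 50), against 0.09 above 200.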
